A study of Mus musculus with 16 samples.

Results

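The cell cycle and mitosis genes are 40 genes that dividing cells switch on for DNA replication and chromosome segregation, and they were read here in macrophages of mouse adipose tissue. Members were the probe sets whose only gene symbol was 1 of these 40. That rule read gene symbols and no measured value, but the list was chosen with earlier results of these data known. Of the 40 genes, 39 had such a probe set, 93 probe sets in all, among 18193 genes and 34945 single-symbol probe sets of the series. Each gene is given by its brightest probe set. A filter on dim genes, which asked that a gene exceed the median of an array for 4 or more of the 16, kept 38 of them among 11908 genes, and Tyms fell below it. Ccnb1 had no such probe set in the annotation and was not analysed here. The filter was passed by 32 members on all 16 arrays, by 37 on arrays of all 4 groups and by Bub1 on arrays of 3 groups, so no member passed through 1 group alone.

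The study sorted macrophages from perigonadal fat of C57BL/6J mice aged 12 to 14 weeks, either lean (Lep +/+) or obese for lack of leptin (Lep ob/ob). The FB fraction carried F4/80 and CD11b without CD11c, and the FBC fraction carried all 3 surface antigens. Every group had 4 arrays, both fractions came from 4 lean and 4 obese mice, and RNA was amplified in 2 rounds before hybridisation. Mice of both genotypes were otherwise untreated as far as the labels say, and obesity here is that of 1 mutation, not of diet.

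A cell that enters the cycle first makes cyclin E and E2F targets such as the replicative helicase, the clamp and the enzymes of deoxynucleotide supply. Cyclin A, cyclin B, Cdk1, the Aurora and Polo kinases, the checkpoint and the spindle proteins follow in G2 and mitosis. Most tissue macrophages rest outside the cycle, yet macrophages of obese fat are known to divide in place, with Ki-67 as the usual marker.

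Promoters of these genes share short elements: a CCAAT box bound by NF-Y, an E2F site in genes of DNA replication, and the cell cycle genes homology region (CHR), at which the DREAM and MuvB complexes bind genes of G2 and mitosis. RefSeq promoters (GRCm38.p6, 250 bases before to 50 after the start) were held for 32 of the 39 measured members, 34 promoters in all. Searched on both strands, the CHR letters TTTGAA stood in 18 of these 34 (52.9%), against 17.9% of 32851 promoters of that length. The E2F letters TTTGGCGC or TTTCGCGC stood in 5 (14.7%) against 0.813%, and CCAAT stood in 28 (82.4%) against 37.4%. Helicase and clamp genes held an E2F match in 4 of 7 promoters (57.1%). These are matches of letters, not measured binding. The 5 promoters below show the mitotic type in 4 genes that rose in obese FBC macrophages and the replication type in Mcm5, which did not pass the test. The 4 were taken for the most matches among the risen members, with Cenpa level with Aurka but not shown. The Cdk1 promoter also holds an E2F match. Capitals mark every match, and a match on the opposite strand appears as its reverse complement.
Ube2c (chr2:164769679-164769978, plus strand): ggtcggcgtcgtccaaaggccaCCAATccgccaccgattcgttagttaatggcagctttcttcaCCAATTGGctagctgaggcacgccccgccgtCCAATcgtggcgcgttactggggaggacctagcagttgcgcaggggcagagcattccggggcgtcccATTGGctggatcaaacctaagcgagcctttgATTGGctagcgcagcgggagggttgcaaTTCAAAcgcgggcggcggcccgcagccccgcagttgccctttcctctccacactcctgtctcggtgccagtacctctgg
Cdk1 (chr10:69352863-69353162, minus strand): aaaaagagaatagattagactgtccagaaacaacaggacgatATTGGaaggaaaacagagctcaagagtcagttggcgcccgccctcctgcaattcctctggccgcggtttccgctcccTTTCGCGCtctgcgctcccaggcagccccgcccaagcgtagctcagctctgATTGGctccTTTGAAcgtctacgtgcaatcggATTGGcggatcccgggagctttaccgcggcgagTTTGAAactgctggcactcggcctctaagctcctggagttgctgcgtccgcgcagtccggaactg
Cdca3 (chr6:124829926-124830225, plus strand): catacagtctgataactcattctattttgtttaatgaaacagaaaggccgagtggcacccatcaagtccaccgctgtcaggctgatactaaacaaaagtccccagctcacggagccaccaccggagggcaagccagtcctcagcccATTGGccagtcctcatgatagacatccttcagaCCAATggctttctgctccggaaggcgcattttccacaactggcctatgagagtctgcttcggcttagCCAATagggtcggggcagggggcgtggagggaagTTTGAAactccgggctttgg
Aurka (chr2:172370521-172370820, minus strand): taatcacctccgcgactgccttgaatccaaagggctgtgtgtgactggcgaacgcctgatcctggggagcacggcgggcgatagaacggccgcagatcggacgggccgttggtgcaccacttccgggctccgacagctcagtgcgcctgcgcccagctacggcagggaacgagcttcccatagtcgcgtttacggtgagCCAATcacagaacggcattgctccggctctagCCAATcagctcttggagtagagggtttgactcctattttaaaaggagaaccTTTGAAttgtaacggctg
Mcm5 (chr8:75109259-75109558, plus strand): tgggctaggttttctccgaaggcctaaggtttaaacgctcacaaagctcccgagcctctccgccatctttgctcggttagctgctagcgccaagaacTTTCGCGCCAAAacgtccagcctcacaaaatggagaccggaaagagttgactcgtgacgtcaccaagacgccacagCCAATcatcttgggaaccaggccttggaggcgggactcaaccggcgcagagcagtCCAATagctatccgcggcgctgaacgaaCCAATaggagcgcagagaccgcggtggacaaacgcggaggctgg

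The CHR match lay 29 bases before the start in Ube2c, 71 and 15 before it in Cdk1, and 31 and 33 after it in Cdca3 and Aurka. In Mcm5 there was no CHR match, and its E2F matches on opposite strands, 153 and 149 bases before the start, overlapped. In Ube2c a pair of CCAAT matches on opposite strands overlap. Among the 13 members that rose in obese FBC, 11 had a promoter in the table, 12 promoters in all, of which 9 (75.0%) held the CHR letters, 10 (83.3%) CCAAT and 1 (8.33%) an E2F match. The promoters of Birc5 and Nusap1 held no match of any kind, and that of Bub1 held CCAAT but no CHR match.

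Levels are log2(intensity + 16) after quantile normalization, with the array median at 5.87, and a difference on this scale understates the change of dim genes. All 6 macrophage markers (Adgre1, Itgam, Cd68, Csf1r, Fcgr1, Mertk) lay above the median on every array, and Itgax, which encodes CD11c, ran from 8.55 to 11.48 over the 16 arrays. Arrays differed in RNA quality: actin signal at the transcript's 3′ end over that at its 5′ end (the actin ratio) was 45.0 to 53.3 on array 4 of lean FB, lean FBC and obese FB, and 1.15 to 10.9 on the other 13. No batch is named in the labels, and the number of arrays limits every value. P-values come from limma across 11908 genes with Benjamini-Hochberg adjustment, and they measure the spread between these arrays. A gene is said to have risen or fallen at an adjusted p under 0.05.

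The 39 measured members lay low in lean FB and high in obese FBC. Their score on an array, the mean of their log2 levels after each gene was centred on its mean over the 16 arrays, was -0.50, -0.43, -0.48 and -0.72 in lean FB. It was -0.11, -0.14, -0.01 and 0.58 in lean FBC, and 0.23, -0.22, -0.07 and -0.52 in obese FB. Obese FBC arrays scored 1.11, 0.33, 0.11 and 0.83. The means ± SD over 4 arrays were -0.53 ± 0.13, 0.08 ± 0.34, -0.14 ± 0.31 and 0.60 ± 0.46 in the same order of groups. Lean FB and lean FBC did not overlap, nor did lean FB and obese FBC, whereas obese FB overlapped with lean FB through array 4 and with obese FBC through array 1. In bulk RNA of a sorted fraction, fewer cycling cells and less transcript per cycling cell cannot be told apart.

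**Figure D1:**
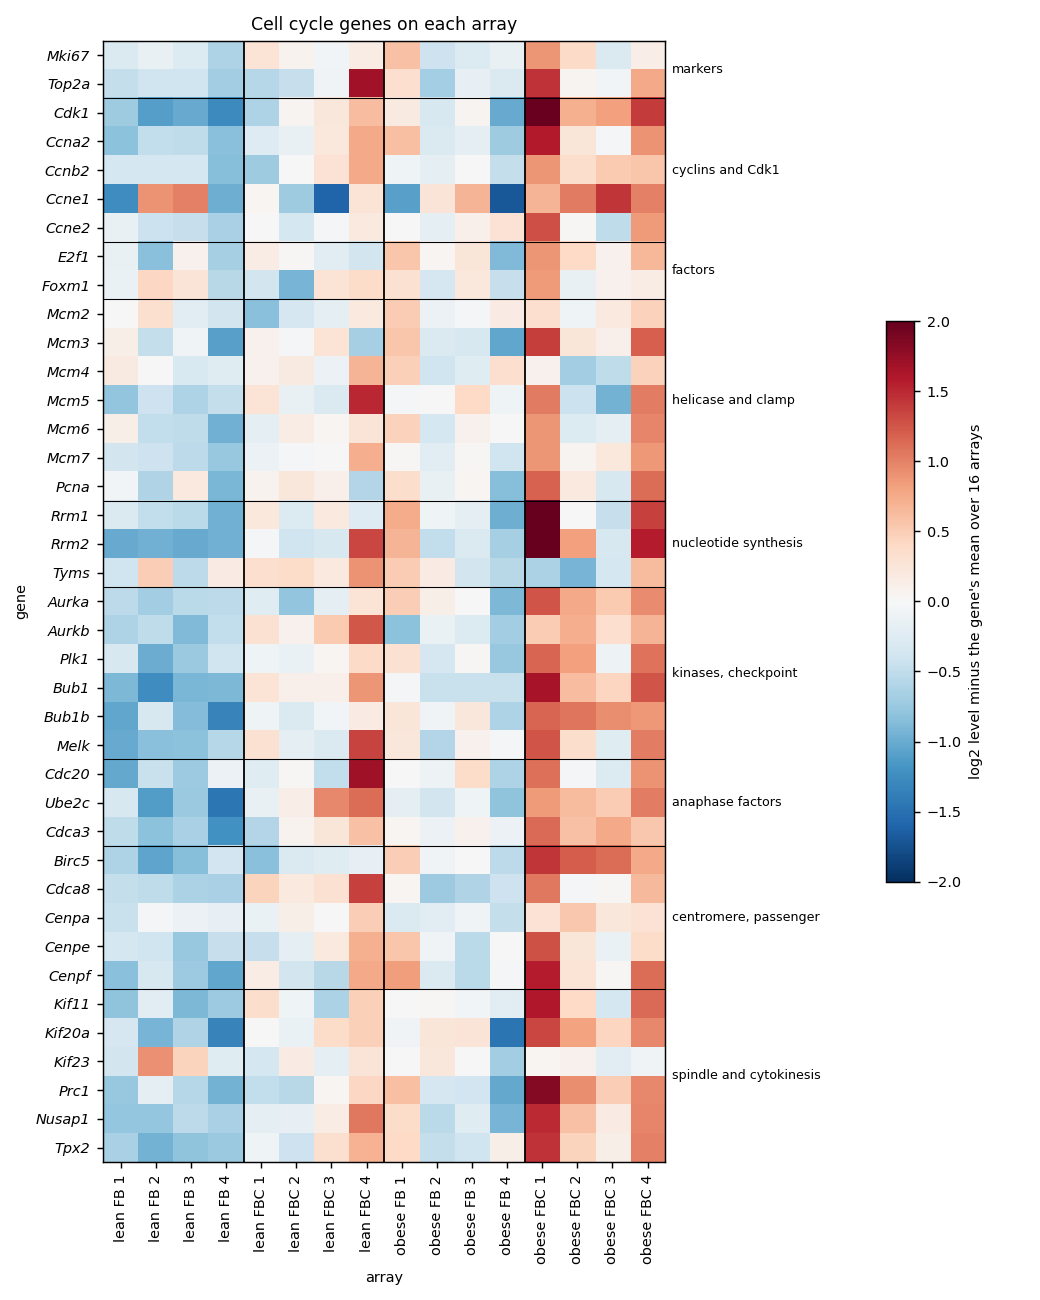
Level of each of the 39 measured cell cycle genes (rows, by role) on each of the 16 arrays (columns, by group), as the log2 level minus the gene's mean over the 16 arrays. Colours run from -2 (blue) to 2 (red) and stay at the end colour beyond. Most rows are blue on the 4 lean FB arrays and red on obese FBC array 1, while Ccne1 and Kif23 follow another order.

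The array scores moved beside the actin ratio in part. Actin ratios were 3.37, 10.9, 2.32 and 53.3 in lean FB, 4.17, 3.89, 2.46 and 48.0 in lean FBC, 3.43, 5.76, 3.80 and 45.0 in obese FB, and 1.80, 2.37, 4.69 and 1.15 in obese FBC. The array of the highest ratio had the lowest score in lean FB and in obese FB but the highest score in lean FBC. In obese FBC the order of the scores was 1, 4, 2, 3 and that of the ratios, from low, 4, 1, 2, 3.

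**Figure D2:**
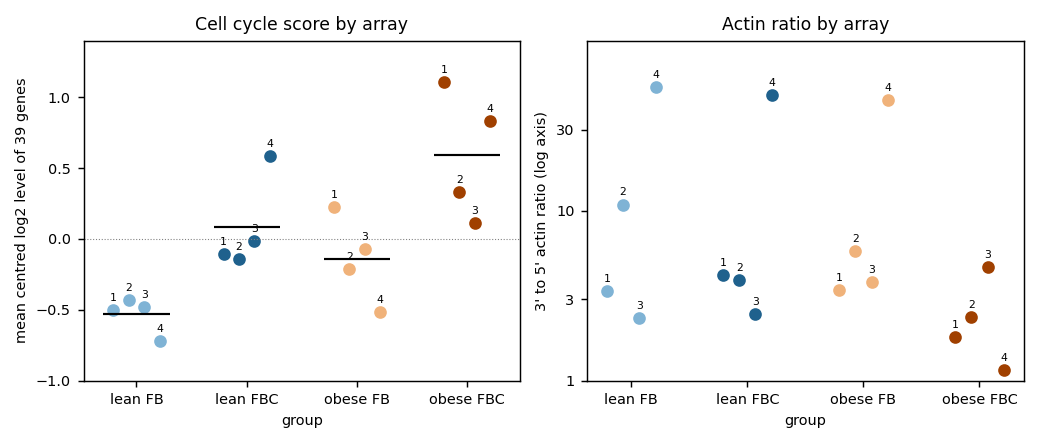
Left, the cell cycle score of each array (mean centred log2 level of 39 genes) by group, with the group mean as a bar and the array number above each point. Right, the 3′ over 5′ actin ratio of the same arrays on a log axis. Obese FBC arrays score between 0.11 and 1.11, and lean FB arrays between -0.72 and -0.43.

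Between the fractions of obese mice, 13 of the 38 tested members rose in FBC and 0 fell, beside 5.11% of all tested genes higher and 3.28% lower. They were Cdk1, Aurka, Aurkb, Plk1, Bub1, Bub1b, Ube2c, Cdca3, Birc5, Cenpa, Kif20a, Prc1 and Nusap1, genes of G2 and mitosis. Of the 38, 37 had a change above 0 (57.5% of all genes), the median change was 0.78 beside 0.08 for all genes, and 12 had groups that did not overlap, all higher in FBC (11% of all genes). At an unadjusted p under 0.05, 22 members were higher (15.8% of all genes). Leaving out 1 array gave 5 to 14 members: 5 without obese FB array 4 or without obese FBC array 1, 6 without obese FBC array 2 or array 4, and 7 without obese FB array 2. With the actin ratio as a covariate 6 members passed, and with no filter 7. The count was 9 with all probe sets singly, with a pseudocount of 1 or with only the groups compared. It was 16 with the replicate number as a block, with median centring or with no quantile normalization, and 19 with mouse as a random block.

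Between the fractions of lean mice only Bub1 rose in FBC and 0 members fell, beside 0.151% of all genes higher and 0.042% lower. Still, 34 of 38 changes were above 0 (49.9% of all genes), with a median of 0.65 beside -0.00053 for all genes, and 17 were above 0 at an unadjusted p under 0.05 (4.95% of all genes). In 17 members every lean FBC array lay above every lean FB array (3.49% of all genes). Without 1 array the count was 0 to 2, and Bub1 passed in none of the 8 fits that left out 1 lean array. With the replicate number as a block 2 members passed, Bub1 and Aurkb, and with mouse as a random block 4, these and Ube2c and Cdca8.

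Obesity was read within each fraction. In FBC, Cdk1, Aurka, Bub1b, Birc5 and Prc1 rose in obese mice and 0 of 38 fell, beside 8.12% of all genes higher and 5.95% lower. These 5 are 13.2% of the members tested. Of the changes 34 were above 0 (57.1% of all genes), with a median of 0.56 beside 0.08, and 6 members did not overlap between groups (12.4% of all genes). At an unadjusted p under 0.05, 14 were higher (17.4% of all genes). Leaving out lean FBC array 1 or obese FBC array 1 gave 3 members, lean FBC array 2 gave 2 and obese FBC array 3 gave 9. Without the 3 arrays of high actin ratio 13 members passed.

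In FB, Bub1b alone rose in obese mice and 0 fell, beside 1.81% of all genes higher and 4.07% lower. Changes above 0 numbered 34 of 38 (53.7% of all genes), with a median of 0.46 beside 0.03, and 5 members did not overlap (5.52% of all genes). At an unadjusted p under 0.05, 6 of 38 were higher, beside 9.32% of all genes, and whether the members exceed that share was not tested. The count was 0 without lean FB array 1 or 3 and without obese FB array 1, 2 or 3, and 3 without obese FB array 4. Without lean FB array 4 it was 1, a gene other than Bub1b. Without the 3 arrays of high actin ratio 4 members passed. In all 4 comparisons 0 members were lower at an unadjusted p under 0.05 by limma, beside 10.9% of all genes for obesity in FB, 11.5% for obesity in FBC, 3.24% between the lean fractions and 9.3% between the obese ones. The comparisons between fractions and those between genotypes share arrays, so their values stand side by side and are not independent.

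**Figure D3:**
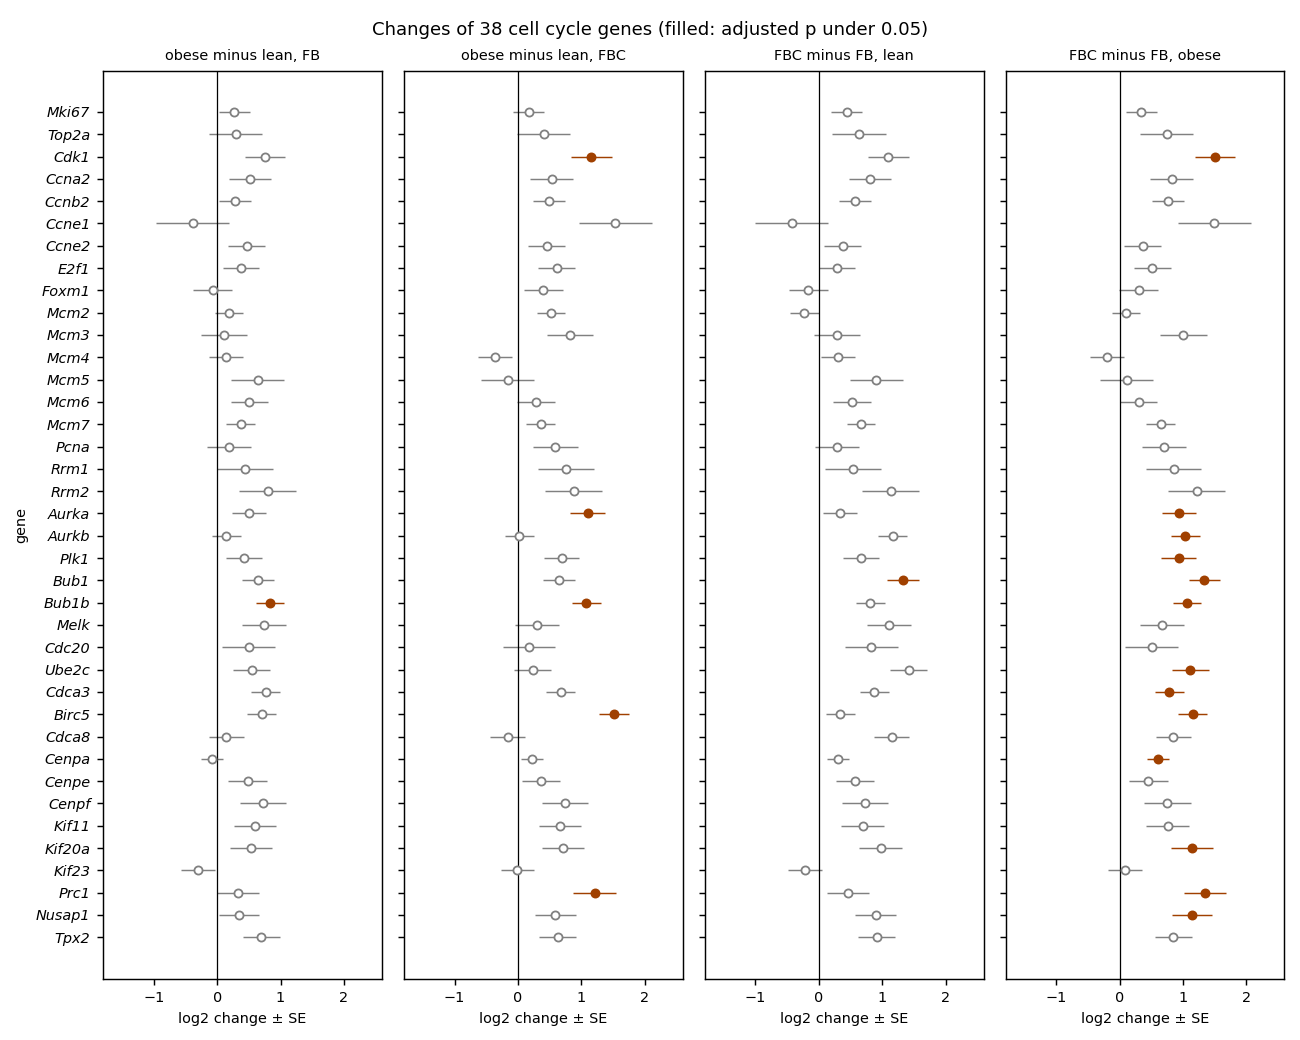
Log2 change (point) and its standard error (bar) of the 38 tested members in the 4 comparisons, with filled points at an adjusted p under 0.05 by limma. Filled points number 1, 5, 1 and 13 from left to right, all above 0.

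Proliferation markers come first by role. Mki67, which encodes the Ki-67 antigen of cycling cells, in lean mice was 10.76, 10.91, 10.79 and 10.45 in FB and 11.33, 11.13, 11.00 and 11.21 in FBC. Mki67 in obese mice was 11.65, 10.64, 10.78 and 10.91 in FB and 11.94, 11.44, 10.76 and 11.20 in FBC. All lean FBC arrays lay above all lean FB arrays, and the other groups overlapped, with obese FB array 1 and obese FBC array 1 the highest of their groups. The changes were 0.27 ± 0.25 (adjusted p = 0.587) for obesity in FB, 0.17 ± 0.25 (adjusted p = 0.693) for obesity in FBC and 0.34 ± 0.25 (adjusted p = 0.409) for FBC against FB in obese mice, none past the test. Top2a, the topoisomerase that untangles replicated chromosomes, in lean mice was 8.79, 8.87, 8.87 and 8.57 in FB and 8.69, 8.81, 9.20 and 10.94 in FBC. Top2a in obese mice was 9.60, 8.59, 9.10 and 8.98 in FB and 10.72, 9.32, 9.21 and 10.02 in FBC. Lean FBC array 4 and obese FBC array 1 were the highest of the 16, and FBC exceeded FB by 0.63 ± 0.42 (adjusted p = 0.741) in lean and 0.75 ± 0.42 (adjusted p = 0.278) in obese mice.

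Of the cyclins and Cdk1, 5 of 6 were tested and 1 rose in obese FBC. Cdk1, the kinase that drives entry into mitosis, in lean mice was 6.72, 6.33, 6.43 and 6.16 in FB and 6.83, 7.50, 7.67 and 8.06 in FBC. Cdk1 in obese mice was 7.63, 7.12, 7.50 and 6.43 in FB and 9.42, 8.15, 8.26 and 8.85 in FBC. Every obese FBC array lay above every array of the other groups, and lean FBC lay above lean FB. FBC exceeded FB in obese mice by 1.50 ± 0.32 (adjusted p = 0.00786), a fold of 2.83, and obese FBC exceeded lean FBC by 1.16 ± 0.32 (adjusted p = 0.0233). The obesity change in FB was 0.76 ± 0.32 (adjusted p = 0.182) and that between fractions in lean mice 1.10 ± 0.32 (adjusted p = 0.231), neither past the test. The FBC call of Cdk1 was lost with the actin ratio as a covariate (adjusted p = 0.0510). It was also lost without lean FBC array 1 or 2 or obese FBC array 1 or 4, with adjusted p up to 0.0722. Of the G2 and mitotic cyclins that bind Cdk1, Ccnb2 had FBC against FB in obese mice at 0.77 ± 0.25 (adjusted p = 0.0687) with no overlap and Ccna2 at 0.82 ± 0.33 (adjusted p = 0.138).

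Of the cyclin E genes, whose products partner Cdk2 at the start of replication, Ccne1 followed another order. Ccne1 in lean mice was 6.33, 8.49, 8.59 and 6.61 in FB and 7.62, 6.88, 5.98 and 7.85 in FBC. Ccne1 in obese mice was 6.49, 7.84, 8.27 and 5.89 in FB and 8.26, 8.61, 9.01 and 8.59 in FBC. Arrays 2 and 3 of both FB groups were high and arrays 1 and 4 low, so the FB groups spread widely. Its changes were among the extremes yet missed the test, at 1.54 ± 0.58 (adjusted p = 0.0854) for obesity in FBC, where the groups did not overlap, 1.50 ± 0.58 (adjusted p = 0.116) for FBC against FB in obese mice and -0.38 ± 0.58 (adjusted p = 0.762) for obesity in FB. Ccne1 passed in some alternatives only. Between the obese fractions it did so with the mean of its probe sets, at 1.21 (adjusted p = 0.0395). For obesity in FBC it did so with only the groups compared (adjusted p = 0.0238), with array weights (0.0112) and without the 3 arrays of high actin ratio (0.0300). Ccne2 was lowest in lean FB, at a mean of 6.62, and highest in obese FBC, at 7.45. It gave 0.36 ± 0.29 (adjusted p = 0.474) between the fractions of obese mice.

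The transcription factors did not pass any test. E2f1, which drives genes of replication, in lean mice was 6.86, 6.17, 7.10 and 6.34 in FB and 7.15, 7.04, 6.79 and 6.64 in FBC. E2f1 in obese mice was 7.57, 7.04, 7.26 and 6.12 in FB and 7.88, 7.41, 7.10 and 7.66 in FBC. Groups overlapped throughout, and the change between fractions of obese mice was 0.52 ± 0.29 (adjusted p = 0.272). Foxm1, which drives genes of G2 and mitosis, in lean mice was 6.43, 6.98, 6.82 and 6.01 in FB and 6.20, 5.62, 6.83 and 6.92 in FBC. Foxm1 in obese mice was 6.87, 6.22, 6.77 and 6.10 in FB and 7.40, 6.42, 6.64 and 6.71 in FBC. Its groups overlapped too, with changes of 0.30 ± 0.31 (adjusted p = 0.579) between fractions of obese mice and -0.07 ± 0.31 (adjusted p = 0.928) for obesity in FB.

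None of the 7 helicase and clamp genes passed the test in any of the 5 comparisons, and their median change between the fractions of obese mice was 0.30. Mcm5, a helicase subunit, in lean mice was 9.80, 10.17, 9.97 and 10.11 in FB and 10.85, 10.44, 10.30 and 12.09 in FBC. Mcm5 in obese mice was 10.55, 10.57, 10.99 and 10.49 in FB and 11.63, 10.16, 9.64 and 11.60 in FBC. Obese FBC spread widely, with arrays 1 and 4 high and array 3 the lowest of all 16, while lean FB lay below both lean FBC and obese FB. Obesity gave 0.64 ± 0.42 (adjusted p = 0.423) in FB and -0.16 ± 0.42 (adjusted p = 0.842) in FBC, and the lean fractions differed by 0.91 ± 0.42 (adjusted p = 0.596).

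Pcna, the clamp that holds polymerases on DNA, in lean mice was 11.42, 10.87, 11.68 and 10.57 in FB and 11.55, 11.69, 11.57 and 10.89 in FBC. Pcna in obese mice was 11.83, 11.32, 11.51 and 10.62 in FB and 12.66, 11.66, 11.16 and 12.59 in FBC. Arrays 1 and 4 of obese FBC were the highest of all, arrays 2 and 3 lay within the other groups, and FBC against FB in obese mice was 0.70 ± 0.35 (adjusted p = 0.226). Mcm2, also of the helicase, in lean mice was 9.09, 9.40, 8.86 and 8.72 in FB and 8.25, 8.74, 8.88 and 9.28 in FBC. Mcm2 in obese mice was 9.59, 8.96, 9.03 and 9.24 in FB and 9.42, 9.0, 9.28 and 9.54 in FBC. Its groups overlapped in every comparison, with 0.52 ± 0.23 (adjusted p = 0.138) for obesity in FBC and -0.23 ± 0.23 (adjusted p = 0.857) between the lean fractions.

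Mcm4, another helicase subunit, was the lowest change of the members in obese FBC against both its references. Mcm4 in lean mice was 11.02, 10.85, 10.54 and 10.61 in FB and 10.93, 11.02, 10.72 and 11.53 in FBC. Mcm4 in obese mice was 11.32, 10.44, 10.61 and 11.18 in FB and 10.94, 10.16, 10.34 and 11.31 in FBC. All groups overlapped, and neither -0.37 ± 0.27 (adjusted p = 0.39) for obesity in FBC nor -0.20 ± 0.27 (adjusted p = 0.678) between the obese fractions passed. For the remaining subunits the change between the obese fractions was 1.01 ± 0.36 (adjusted p = 0.0963) for Mcm3, 0.30 ± 0.30 (adjusted p = 0.565) for Mcm6 and 0.65 ± 0.23 (adjusted p = 0.0881) for Mcm7, the last with no overlap.

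Deoxynucleotide synthesis was represented by ribonucleotide reductase. Rrm2, its small regulated subunit, in lean mice was 7.93, 7.98, 7.93 and 7.99 in FB and 8.92, 8.54, 8.63 and 10.28 in FBC. Rrm2 in obese mice was 9.62, 8.46, 8.66 and 8.27 in FB and 10.98, 9.76, 8.63 and 10.51 in FBC. Lean FB arrays spread by 0.03 (SD) and lay below every array of the other groups, whereas obese FBC array 3 was close to the obese FB arrays. FBC exceeded FB by 1.13 ± 0.45 (adjusted p = 0.505) in lean and 1.22 ± 0.45 (adjusted p = 0.103) in obese mice, neither past the test. Rrm1, the large subunit, gave 0.85 ± 0.44 (adjusted p = 0.237) between the obese fractions, and Tyms, thymidylate synthase, was dim, from 4.30 to 6.13 over the arrays, and was not tested.

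Of the 6 mitotic kinases and checkpoint genes, 5 rose in FBC against FB of obese mice, with a median change of 0.99 over the 6. Bub1, a kinase of the spindle checkpoint, in lean mice was 5.82, 5.49, 5.81 and 5.83 in FB and 7.00, 6.83, 6.83 and 7.61 in FBC. Bub1 in obese mice was 6.69, 6.27, 6.28 and 6.27 in FB and 8.38, 7.34, 7.16 and 7.98 in FBC. The groups ordered as lean FB, obese FB and then the FBC groups, and the FBC and FB arrays of a genotype did not overlap. FBC exceeded FB by 1.33 ± 0.25 (adjusted p = 0.0387) in lean and 1.34 ± 0.25 (adjusted p = 0.00346) in obese mice, folds of 2.52 and 2.53. The highest adjusted p of the lean call over its alternatives was 0.271. A second Bub1 probe set, near the array median, gave 0.07 ± 0.30 between the obese fractions, and the mean of both probe sets ended both calls, at 0.84 in lean and 0.70 in obese mice.

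Bub1b, which encodes BubR1, a checkpoint inhibitor of anaphase, in lean mice was 7.01, 7.73, 7.19 and 6.71 in FB and 7.96, 7.75, 7.99 and 8.21 in FBC. Bub1b in obese mice was 8.29, 7.98, 8.28 and 7.43 in FB and 9.21, 9.12, 8.98 and 8.92 in FBC. All obese FBC arrays were higher than every other array, and lean FBC lay above lean FB, whereas the FB groups overlapped through lean array 2 and obese array 4. It was the only member to rise with obesity in FB, by 0.83 ± 0.22 (adjusted p = 0.0384), and it rose in FBC by 1.08 ± 0.22 (adjusted p = 0.00502) and between the obese fractions by 1.06 ± 0.22 (adjusted p = 0.00771). The FB call was lost without lean FB array 1, 3 or 4 and without obese FB array 1, 2 or 3, and its adjusted p over the alternatives reached 0.331. The other 2 calls of Bub1b held in every alternative run.

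Aurka, the Aurora kinase of centrosomes and spindle poles, in lean mice was 6.39, 6.22, 6.38 and 6.39 in FB and 6.68, 6.13, 6.74 and 7.20 in FBC. Aurka in obese mice was 7.41, 7.03, 6.92 and 6.02 in FB and 8.17, 7.67, 7.44 and 7.86 in FBC. Every obese FBC array exceeded the others, by a little over obese FB array 1, and obese FB spread from the lowest array of all to that one. Aurka rose with obesity in FBC by 1.10 ± 0.27 (adjusted p = 0.0131), and FBC exceeded FB in obese mice by 0.94 ± 0.27 (adjusted p = 0.0409). With the mean of its probe sets both calls ended, at changes of 0.50 (adjusted p = 0.165) and 0.32 (adjusted p = 0.419). The FBC call was also lost without lean FBC array 2, and that between the obese fractions in 13 of 22 alternatives, among them obese FB array 2, 3 or 4 or obese FBC array 1, 2 or 4 left out. Aurkb, the Aurora kinase of the chromosomal passenger complex, in lean mice was 6.77, 6.86, 6.50 and 6.89 in FB and 7.69, 7.47, 7.89 and 8.62 in FBC. Aurkb in obese mice was 6.56, 7.25, 7.11 and 6.68 in FB and 7.88, 8.10, 7.72 and 8.05 in FBC. Here the arrays split by fraction and not by genotype, with all 8 FBC arrays above all 8 FB arrays. FBC exceeded FB by 1.04 ± 0.23 (adjusted p = 0.0103) in obese mice, past the test, and by 1.16 ± 0.23 (adjusted p = 0.0523) in lean mice, just outside it (adjusted p = 0.0483 with the replicate block), while obesity gave 0.02 ± 0.23 (adjusted p = 0.968) in FBC and 0.14 ± 0.23 (adjusted p = 0.777) in FB.

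Plk1, the Polo kinase of mitotic entry and exit, in lean mice was 6.05, 5.38, 5.63 and 5.97 in FB and 6.29, 6.24, 6.41 and 6.76 in FBC. Plk1 in obese mice was 6.67, 6.04, 6.40 and 5.61 in FB and 7.54, 7.19, 6.27 and 7.45 in FBC. Obese FBC array 3 lay among the obese FB arrays and the other 3 above them, and the change between the obese fractions was 0.93 ± 0.28 (adjusted p = 0.0486). This call was lost in 13 of 22 alternatives, among them obese FB array 2, 3 or 4 or obese FBC array 1, 2 or 4 left out, with adjusted p up to 0.150. Melk, a leucine zipper kinase of dividing cells, in lean mice was 6.74, 6.92, 6.93 and 7.18 in FB and 8.06, 7.57, 7.47 and 9.10 in FBC. Melk in obese mice was 7.97, 7.17, 7.84 and 7.73 in FB and 9.01, 8.10, 7.51 and 8.77 in FBC. Lean FBC lay wholly above lean FB, by 1.11 ± 0.35 (adjusted p = 0.32), and the obese groups overlapped, at 0.67 ± 0.35 (adjusted p = 0.239), neither past the test.

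Ubiquitin ligase factors of mitosis rose in 2 of 3 cases between the obese fractions. Ube2c, the ubiquitin-conjugating enzyme of the anaphase-promoting complex, in lean mice was 6.41, 5.62, 5.99 and 5.29 in FB and 6.58, 6.86, 7.69 and 7.85 in FBC. Ube2c in obese mice was 6.55, 6.36, 6.65 and 5.92 in FB and 7.58, 7.36, 7.24 and 7.75 in FBC. FBC lay above FB without overlap in both genotypes, by 1.11 ± 0.29 (adjusted p = 0.0263) in obese mice and, missing the test, by 1.42 ± 0.29 (adjusted p = 0.0559) in lean mice (adjusted p = 0.0234 with mouse as a random block). The obese call of Ube2c was lost in 6 of 22 alternatives, with adjusted p up to 0.0860. Cdca3, which promotes mitotic entry through removal of the inhibitory kinase Wee1, in lean mice was 6.87, 6.56, 6.73 and 6.16 in FB and 6.80, 7.45, 7.63 and 7.96 in FBC. Cdca3 in obese mice was 7.41, 7.26, 7.46 and 7.26 in FB and 8.51, 7.97, 8.14 and 7.92 in FBC. Obese FBC lay above obese FB by 0.78 ± 0.23 (adjusted p = 0.0436), and obese FB above lean FB by 0.77 ± 0.23 (adjusted p = 0.0574), which missed the test. The obese call of Cdca3 was lost without any 1 of the 8 obese arrays, and with the mean of its probe sets the change was 0.33 (adjusted p = 0.235). Cdc20, an activator of the same complex, gave 0.51 ± 0.42 (adjusted p = 0.482) between the obese fractions and was highest on lean FBC array 4.

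Centromere and passenger genes rose in 2 of 5 cases between the obese fractions. Birc5, which encodes survivin of the passenger complex, in lean mice was 6.33, 5.89, 6.08 and 6.55 in FB and 6.10, 6.65, 6.69 and 6.78 in FBC. Birc5 in obese mice was 7.43, 6.86, 6.95 and 6.41 in FB and 8.36, 8.15, 8.06 and 7.69 in FBC. Obese FBC lay above every other array, and the lean fractions overlapped. Birc5 rose with obesity in FBC by 1.51 ± 0.23 (adjusted p = 0.000458), a fold of 2.85, and FBC exceeded FB in obese mice by 1.15 ± 0.23 (adjusted p = 0.00577). Both calls held in every alternative run. The change between the lean fractions was 0.34 ± 0.23 (adjusted p = 0.759).

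Cenpa, the histone of centromeric nucleosomes, in lean mice was 8.50, 8.92, 8.83 and 8.78 in FB and 8.81, 9.05, 8.95 and 9.43 in FBC. Cenpa in obese mice was 8.66, 8.71, 8.87 and 8.46 in FB and 9.23, 9.48, 9.17 and 9.23 in FBC. All obese FBC arrays exceeded the obese FB arrays, by 0.60 ± 0.17 (adjusted p = 0.0353), the smallest change among the 13. The call was lost in 10 of 22 alternatives, with adjusted p up to 0.112. Cdca8, which encodes borealin of the passenger complex, in lean mice was 9.16, 9.13, 9.0 and 8.99 in FB and 10.09, 9.83, 9.94 and 11.01 in FBC. Cdca8 in obese mice was 9.69, 8.91, 9.03 and 9.22 in FB and 10.69, 9.60, 9.66 and 10.29 in FBC. The lean fractions did not overlap, at 1.15 ± 0.28 (adjusted p = 0.124), the obese ones did through array 1 of FB, at 0.84 ± 0.28 (adjusted p = 0.07), and neither passed. With mouse as a random block both passed (adjusted p = 0.0366 in lean and 0.0284 in obese mice), and with the replicate block the obese one (adjusted p = 0.0271). The kinetochore genes Cenpe and Cenpf gave 0.45 ± 0.30 (adjusted p = 0.368) and 0.75 ± 0.37 (adjusted p = 0.211) between the obese fractions.

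Spindle and cytokinesis genes rose in 3 of 6 cases between the obese fractions. Prc1, which bundles microtubules of the central spindle, in lean mice was 7.13, 7.70, 7.32 and 6.95 in FB and 7.41, 7.33, 7.93 and 8.30 in FBC. Prc1 in obese mice was 8.49, 7.55, 7.51 and 6.87 in FB and 9.73, 8.83, 8.39 and 8.86 in FBC. Obese FBC array 3 lay just below obese FB array 1, and all obese FBC arrays lay above lean FBC. FBC exceeded FB in obese mice by 1.35 ± 0.33 (adjusted p = 0.0194) and it rose with obesity in FBC by 1.21 ± 0.33 (adjusted p = 0.0242). The obese call was lost with the actin ratio as a covariate (adjusted p = 0.0565) and without obese FB array 4 or obese FBC array 1. The FBC call was lost without lean FBC array 1 or 2 or obese FBC array 1.

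Kif20a, a kinesin that carries the passenger complex to the central spindle, in lean mice was 6.02, 5.43, 5.75 and 5.02 in FB and 6.34, 6.23, 6.72 and 6.83 in FBC. Kif20a in obese mice was 6.28, 6.59, 6.61 and 4.89 in FB and 7.69, 7.15, 6.79 and 7.32 in FBC. The fractions did not overlap in either genotype, obese FB array 4 was the lowest of all, and the change in obese mice was 1.14 ± 0.33 (adjusted p = 0.0436). Without that array it was 0.74 (adjusted p = 0.109), and the call was lost in 10 of 22 alternatives. Nusap1, a spindle protein that binds microtubules and chromatin, in lean mice was 6.99, 6.98, 7.24 and 7.12 in FB and 7.58, 7.61, 7.91 and 8.82 in FBC. Nusap1 in obese mice was 8.12, 7.22, 7.53 and 6.83 in FB and 9.26, 8.34, 7.93 and 8.74 in FBC. Obese FBC array 3 lay below obese FB array 1. FBC exceeded FB by 1.14 ± 0.32 (adjusted p = 0.0361) in obese mice and by 0.90 ± 0.32 (adjusted p = 0.422) in lean mice. The lean groups did not overlap, but the lean change missed the test. The obese call of Nusap1 was lost in 10 of 22 alternatives, with adjusted p up to 0.116.

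Kif23, a kinesin of the centralspindlin complex at the cleavage site, stood apart from the rest. Kif23 in lean mice was 8.83, 10.11, 9.64 and 8.95 in FB and 8.84, 9.36, 9.01 and 9.45 in FBC. Kif23 in obese mice was 9.19, 9.42, 9.20 and 8.50 in FB and 9.24, 9.28, 8.99 and 9.13 in FBC. Lean FB arrays 2 and 3 were the highest of all, and the changes ran from -0.31 ± 0.27 (adjusted p = 0.566) for obesity in FB to 0.08 ± 0.27 (adjusted p = 0.883) between the obese fractions. The spindle motor Kif11 gave 0.76 ± 0.34 (adjusted p = 0.17) and Tpx2, the activator of Aurora A on the spindle, 0.85 ± 0.29 (adjusted p = 0.0815) between the obese fractions. Tpx2 did not overlap between obese and lean FB, at 0.70 ± 0.29 (adjusted p = 0.18).

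**Figure D4:**
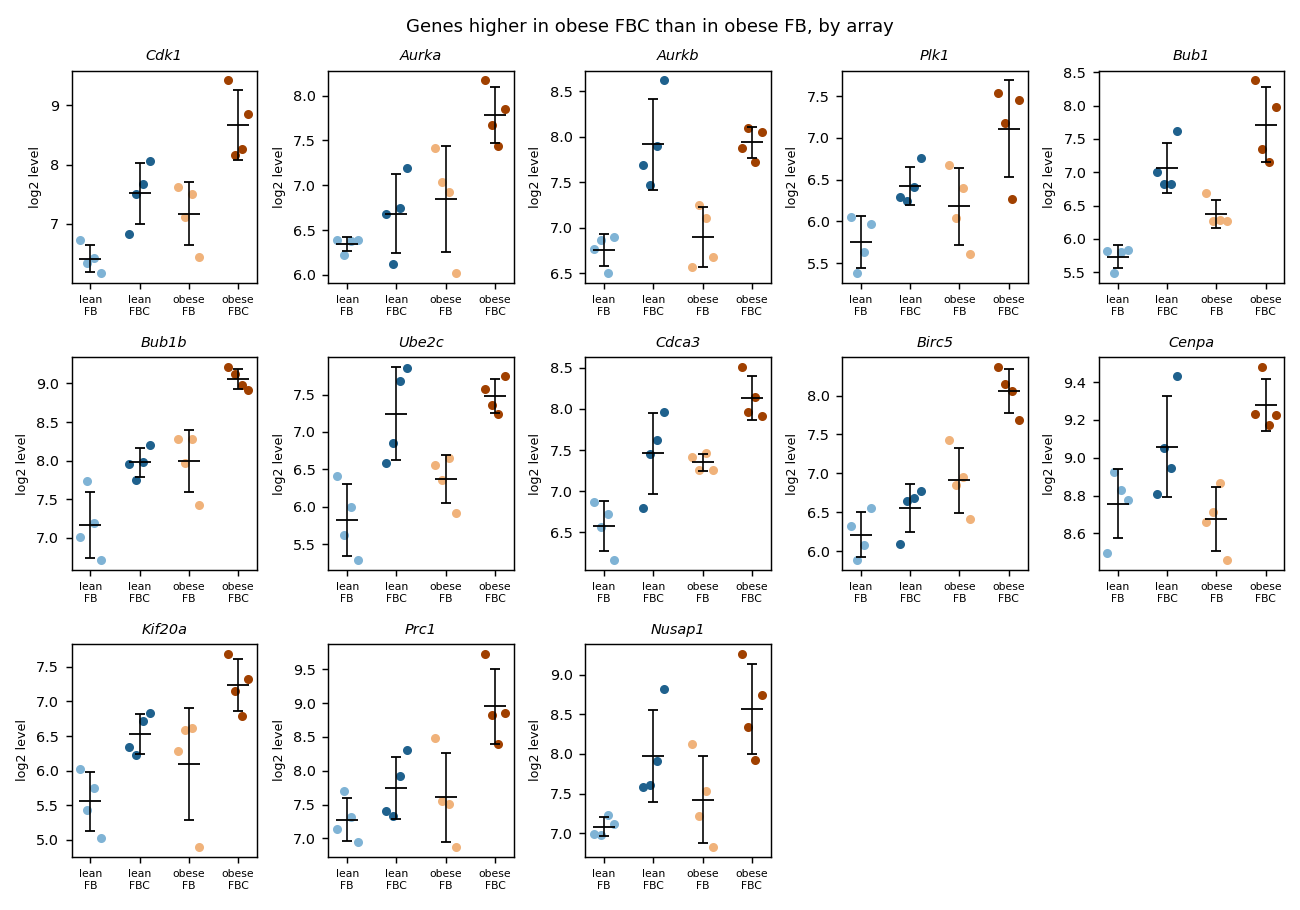
Log2 level on each array (points, 4 a group) of the 13 members that rose in obese FBC against obese FB, with group means and SD as bars. Axes differ between genes and do not start at 0. In 10 of the 13 every obese FBC point lies above every obese FB point; Plk1, Prc1 and Nusap1 each have 1 obese FBC array within the obese FB range.

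Whether obesity acted differently on FBC and FB was tested as a difference of the obesity changes. By limma 0 of 38 members passed, beside 0.16% of all genes, and 2 members had an unadjusted p under 0.05 (13.2% of all genes). The median difference was 0.10 beside 0.07 for all genes. The highest were 1.92 ± 0.81 (adjusted p = 0.322) for Ccne1, 0.88 ± 0.47 (adjusted p = 0.429) for Prc1 and 0.81 ± 0.33 (adjusted p = 0.305) for Birc5, and the lowest -0.80 ± 0.59 (adjusted p = 0.566) for Mcm5. With array weights 2 members passed, Aurka and Prc1.

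Several members have more than 1 probe set, and 54 others exist for 29 members. Between the obese fractions 43 of the 54 moved in the direction of the brightest one. The 13 risen members had 11 others, of which 9 moved the same way and 3 passed the test over all single-symbol probe sets, 1 each for Bub1b, Prc1 and Aurkb. Other probe sets of Ccna2 at 1.12 ± 0.25 (adjusted p = 0.0189), Kif11 at 1.35 ± 0.29 (adjusted p = 0.0151) and Rrm2 at 1.71 ± 0.36 (adjusted p = 0.0143) passed there, although the brightest probe sets of these genes did not. A further Kif11 probe set gave -0.68 ± 0.22, so the probe sets of Kif11 disagree. Of the 54 others, 40 moved with the brightest one for obesity in FB, 40 for obesity in FBC and 42 between the lean fractions. Among the others of the members that rose there, 1 of 2, 2 of 4 and 1 of 1 did so.

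Members moved together from array to array. Over the 703 pairs of the 38 tested members the median correlation across the 16 arrays was 0.68 for the levels and 0.50 for the deviations from the group means, with 668 pairs above 0 in the latter. Against the score of the remaining members, the deviations correlated at 0.96 for Ccna2, 0.94 for Nusap1 and 0.92 for Rrm2, the members most like the set, and at 0.08 for Ccne1, the least. The arrays share their scaling and RNA quality, so these correlations are descriptions.

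Of 28 further S phase genes tested, 3 (10.7%) rose between the obese fractions and 0 fell, beside the 5.11% of all genes: Brca1, of DNA repair, by 1.78 ± 0.34 (adjusted p = 0.0043), Dut, which removes dUTP, by 1.0 ± 0.28 (adjusted p = 0.0349), and Rfc3, of the clamp loader, by 0.77 ± 0.20 (adjusted p = 0.0264). Of 44 further mitosis genes tested, 10 (22.7%) rose and 0 fell. The largest were Kif22, a chromosome kinesin, at 1.71 ± 0.26 (adjusted p = 0.000871), Fbxo5, an inhibitor of the anaphase-promoting complex, at 1.29 ± 0.34 (adjusted p = 0.0278), Gtse1 at 1.25 ± 0.30 (adjusted p = 0.0176), the centrosome kinase Nek2 at 1.25 ± 0.27 (adjusted p = 0.00957) and the spindle protein Tacc3 at 1.17 ± 0.33 (adjusted p = 0.0363). The medians were 0.57 and 0.77, and 0 genes of these lists passed in the lean fractions.

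With obesity in FBC 2 of the 28 S phase genes rose (7.14%, under the 8.12% of all genes), Fen1, a flap nuclease of replication, by 1.75 ± 0.57 (adjusted p = 0.0491) and Brca1 by 1.42 ± 0.34 (adjusted p = 0.0122), and 7 of the 44 mitosis genes (15.9%), led by Fbxo5 at 1.35 ± 0.34 (adjusted p = 0.0153) and Kif22 at 1.27 ± 0.26 (adjusted p = 0.00479). In FB, Cdca2, a phosphatase subunit of chromosomes, rose by 0.76 ± 0.20 (adjusted p = 0.0373) and Espl1, which encodes separase, changed by -0.75 ± 0.21 (adjusted p = 0.0452). Neither list had a member past the test of the difference.

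Upstream of replication, 9 of 10 G1 entry genes had a change above 0 with obesity in each fraction, beside 53.7% of all genes in FB and 57.1% in FBC. In each fraction 1 rose and 1 fell. Of all genes, 1.81% were higher and 4.07% lower in FB, and 8.12% and 5.95% in FBC. Of the 10 G1 entry genes Cdk6, a kinase that binds D cyclins, rose by 0.95 ± 0.23 (adjusted p = 0.0205) in FB and 1.07 ± 0.23 (adjusted p = 0.00591) in FBC. Ccnd2, a D cyclin, changed by -1.66 ± 0.31 (adjusted p = 0.00415) and -2.79 ± 0.31 (adjusted p = 1.96e-05). Ccnd2 was 11.26, 11.23, 10.86 and 10.94 in lean FB and 9.25, 9.20, 8.84 and 10.36 in obese FB, and it was 11.15, 11.81, 12.12 and 12.22 in lean FBC and 9.23, 8.59, 9.55 and 8.75 in obese FBC. No obese array reached the lean arrays of its fraction. None of the 10 passed between the fractions of either genotype.

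Among 16 tested inhibitors and pocket proteins 1 passed (6.25%, near the 5.11% and 8.12% of all genes higher between the obese fractions and with obesity in FBC), Cdkn2c, which encodes the Cdk4 and Cdk6 inhibitor p18. It was 8.11, 8.60, 8.51 and 8.58 in lean FB, 8.48, 8.49, 8.32 and 8.82 in lean FBC, 9.24, 8.50, 8.75 and 8.27 in obese FB and 10.38, 10.05, 9.37 and 9.87 in obese FBC. The obese FBC arrays lay above all others, by 1.23 ± 0.24 (adjusted p = 0.00413) against obese FB and 1.39 ± 0.24 (adjusted p = 0.00103) against lean FBC. Of the 10 tested growth signals and brakes of macrophages, 2 fell with obesity in FBC (5.95% of all genes), the growth factor Csf1 by a change of -1.64 ± 0.33 (adjusted p = 0.00408) and the monocyte receptor Ccr2 at -0.86 ± 0.17 (adjusted p = 0.00304). Csf1r, the receptor for Csf1, differed by -0.06 ± 0.13 (adjusted p = 0.826) between the obese fractions.

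Markers of other cells moved beside these results. The summed intensity of the T and NK cell markers, 8 of 11 measured and none listed at 0, was 992.5 to 1370 in lean FB, 1716 to 3407 in lean FBC, 779 to 1293 in obese FB and 2389 to 6188 in obese FBC. In obese FBC it was 6188, 2949, 2389 and 3781 on arrays 1 to 4, the same order as the cell cycle score. Most of the sum was 1 gene, Il7r, the interleukin 7 receptor, at 89.2% to 95.5% of it in obese FBC and 40.8% to 64.0% in lean FB. Without Il7r the sum was 359 to 655 in lean FB, 595 to 742 in lean FBC, 179 to 312 in obese FB and 279, 206, 258 and 285 on obese FBC arrays 1 to 4, an order other than that of the score. Of its 5 tested genes 1 rose between the obese fractions, Il7r, by 2.18 ± 0.32 (adjusted p = 0.000586). Cd2, a surface antigen of T and NK cells, fell with obesity, by a change of -2.86 ± 0.33 in FB and -3.40 ± 0.33 in FBC. The T cell receptor genes Cd3d and Cd3e lay below the array median on all 16 arrays, at 4.14 to 5.57 and 4.45 to 5.74. Cd3g lay above it on lean FBC arrays 1, 2 and 4, at 6.15, 5.90 and 6.96, and below it on the other arrays. Gzma lay above it on all 16 arrays, at 6.32 to 7.43, and Nkg7 on all obese FBC arrays, at 6.17, 6.04, 6.21 and 6.69. Of the 8 measured markers, Il7r among them, those above the median on every array of a group numbered 4 in lean FB and 3 in lean FBC. They numbered 2 in obese FB and 3 in obese FBC. The part of other cells in the cell cycle levels was not tested.

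Monocyte markers went the other way between the obese fractions, with 4 of 4 tested genes lower in FBC, and their sum was 27729 to 33295 in obese FB and 4894 to 5460 in obese FBC. In lean mice that sum was 8418 to 31908 in FB and 5827 to 11914 in FBC, and array 4 was the highest of each. Eosinophil markers summed to 5299 on lean FB array 4, the array of the lowest cell cycle score, beside 307 to 456 on the others of its group. Of 3 tested neutrophil genes 2 fell in obese FBC against FB, S100a8 by a change of -2.40 ± 0.59 and S100a9 of -2.68 ± 0.55. Fibroblast and preadipocyte markers, 8 of 8 tested, summed to 2611, 10034, 13072 and 4407 on obese FBC arrays 1 to 4, the reverse order of the cell cycle score, and 0 of them passed between the obese fractions. Against lean FB, 4 of the 8 fell in obese FB, where the sum was 1959 to 2756 beside 2857 to 23302. Of 3 tested adipocyte markers 2 fell with obesity in FB, Car3 by a change of -4.33 ± 0.50 and Adipoq of -1.67 ± 0.44, and 1 had a change above 0. In FBC Car3 alone fell with obesity, by a change of -3.63 ± 0.50. Of 3 tested mast cell markers 1 rose in obese FBC, Kit, by 1.66 ± 0.27 against obese FB and 0.93 ± 0.27 against lean FBC. Ccr7, a dendritic cell receptor, rose in FBC in both genotypes, by 2.07 ± 0.38 in lean and 1.99 ± 0.38 in obese mice. No marker of any list was listed at 0.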

How the data were processed

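The authors deposited 1 linear intensity per probe set and array. Per the submitters' processing notes these came from Expression Console, and every array's 2% trimmed mean was 250. No detection calls accompany them. How probes were summarized, the genome build, a processing batch and the sex of the mice are not given in the sources used. Groups came from the titles. The deposited intensity was turned into log2(intensity + 16) here and quantile-normalized. Of 45101 probe sets, 34945 carried 1 gene symbol in the platform annotation, and each gene was represented by the brightest of its probe sets. Probe sets with several symbols (932) or none (9160, controls left aside) were not used.

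Genes exceeding the median of an array for 4 or more of 16 were tested in 1 limma model of the 4 groups (lmFit and eBayes, 12 residual degrees of freedom), with Benjamini-Hochberg adjustment over 11908 genes and a threshold of 0.05. Simulated arrays with known changes were used to check this fit. The members, roles, gene lists and tests were chosen with earlier results of these data known. Members named with the level on every array are those called in any of the 5 comparisons, the 3 highest and 3 lowest changes of each, and Mki67, Top2a, Cdk1, Pcna, Mcm5, Rrm2, Foxm1 and E2f1. Genes of the other lists are named where called, at most 5 per direction, and Csf1r was added after its values were seen.

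Residuals of same-numbered FB and FBC arrays correlated at 0.135, 0.231, 0.299 and 0.595 in lean mice, all above the limit of 0.1 set for pairs. Lean arrays 1 to 3 of unlike number correlated at 0.0146 to 0.367. Same-numbered arrays correlated at 0.31, 0.033, -0.03 and -0.137 in obese mice, not all above it. The main fit paired no arrays. The alternatives with the replicate block or mouse as a random block paired by number in both genotypes. Alternatives were the filter, the probe set rule, the normalization, the pseudocount, the variance model, array weights, the groups in the fit, pairing, the actin ratio, and the omission of single arrays. Precision is set by having 4 arrays a group. Software comprised limma 3.58.1 in R 4.3.3, with pandas 2.3.3 and matplotlib 3.10.9 in Python 3.11.15.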

Additional observations from a re-analysis of the deposited data

Results flagged for a closer look

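Within groups of 4 arrays, 4 values of the named members lay far from the others of their group, by Dixon's gap over the range. As 108 groups were examined and chance flags about 5% of them, this is no more than chance gives. Aurka was 6.22 on lean FB array 2, beside 6.38 to 6.39 on the other 3. Bub1 was 5.49 on the same array, beside 5.81 to 5.83. Mcm5 was 10.99 on obese FB array 3, beside 10.49 to 10.57. Bub1 was 6.69 on obese FB array 1, beside 6.27 to 6.28. The first of these arrays had an actin ratio of 10.9, and the part of RNA quality was not tested.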

How the results depend on the processing

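No call of a named member changed sign. The 20 calls were each read in 21 or 22 alternative settings, which gave 434 pairs of call and setting. Of these pairs 321 kept the call and 113 lost it. The settings share arrays and serve several calls, so the pairs are not independent. The calls of Birc5 and Bub1b in obese FBC against lean FBC and against obese FB, and of Aurkb and Cdk1 in obese FBC against obese FB, passed in every alternative run. Among 110 named results that were not called, 89 of 2551 alternative values changed sign and 87 passed the test. The numbers of members called were, for obesity in FB, obesity in FBC, FBC against FB in lean mice and FBC against FB in obese mice, 1, 5, 1 and 13. With array weights they were 11, 25, 13 (12 higher, 1 lower) and 23, with 2 for the difference of the obesity changes, and all genes called rose too, from 701, 1675, 23 and 999 to 3987, 4115, 1324 and 2202. With no filter obesity in FB gave 0, the lean fractions 0 and the obese fractions 7. Obesity in FB gave 0 with the mean of probe sets, 0 with no quantile normalization, 2 with the actin ratio as a covariate and 4 without the 3 arrays of high actin ratio, where obesity in FBC gave 13. The lean fractions gave 3 with the stricter filter, median centring or the actin ratio, 2 with trend and robust settings, 4 with mouse as a random block, and 0 with all probe sets singly, only the groups compared or without the 3 arrays. The obese fractions gave 6 with the actin ratio. In those called higher, 841 of 1235 genes without quantile normalization and 906 of 1223 with median centring stand beside 609 of 999. With 1 array left out the counts were 0 to 3 for obesity in FB, 2 to 9 for obesity in FBC, 0 to 2 in the lean fractions, 5 to 14 in the obese fractions and 0 for the difference. The cause of these changes was not tested, other than fewer arrays or more genes in the fit.

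With the replicate number as a block, 2 members passed in the lean fractions, 16 in the obese fractions and 0 for the difference, and Cdca3 lost its call with an adjusted p of 0.0605. The replicate number was not fitted as a fixed block for obesity within a fraction, since each mouse is of 1 genotype, and with mouse as a random block those counts stayed at 1 in FB and 5 in FBC. The fit of only the groups compared was not run for the difference, which needs all 4 groups.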

Other observations

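Lean FBC array 4 stood apart among the lean arrays for several members. It was the highest of the 16 arrays for Top2a (10.94), Mcm5 (12.09), Melk (9.10), Cdca8 (11.01), Aurkb (8.62) and Ube2c (7.85), and its cell cycle score was 0.58 beside -0.14 to -0.01 on the other 3 lean FBC arrays. The same array had an actin ratio of 48.0, the highest summed T and NK cell markers of the lean arrays (3407, of which Il7r made 78.2%) and the lowest fibroblast sum of all (1614). Of the macrophage markers, Adgre1 (11.94), Fcgr1 (8.75) and Mertk (9.10) were the lowest of the 16 arrays there, and Itgam, Cd68 and Csf1r were not. Of the dendritic cell markers, Zbtb46 (9.16) and Dpp4 (8.97) were the highest, and Flt3, Ccr7, Cd209a and Xcr1 were not. The parts of RNA quality and of the mix of cells in these levels were not tested.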
